A study of Mus musculus with 28 samples.

Results

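Prdm14, Tbx3, Tfcp2l1 and Zfp42 are 4 transcription factor genes of naive pluripotency, the state of the pre-implantation epiblast that mouse embryonic stem (ES) cells keep in culture. They were taken by name from the 21887 protein-coding genes of the annotation, and every Forkhead binding event within 50 kb of either gene end was collected. The windows held 198 of the 162571 events in 14 event lists: 99 near Prdm14, 54 near Tbx3, 29 near Tfcp2l1 and 16 near Zfp42. Windows measured from 112 kb for Zfp42 to 157 kb for Tfcp2l1, the longest gene.

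The study mapped tagged Forkhead factors by ChIP-exo, in which an exonuclease trims immunoprecipitated DNA up to the crosslinked protein so that each event is placed at a single base. The cells were MC1 mouse ES lines of the 129S6/SvEvTac background, kept in LIF, doxycycline and puromycin, with 1 doxycycline-repressible factor, C-terminally tagged with His6-FLAG, inserted with a puromycin resistance gene at Rosa26. Washing out doxycycline turned the factor on while the cells grew in differentiation medium with serum, so time with the factor and time in differentiation medium cannot be told apart. Combined lists at 24 h were used for FoxA1 (3 libraries, 2 with anti-FLAG and 1 with anti-FoxA1) and for FoxC1, FoxL2 and FoxP3 (2 anti-FLAG libraries each).

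A FoxA1 time course added 10 lists of 1 library each, with anti-FoxA1 or anti-FLAG at 0, 6, 12, 24 and 48 h after doxycycline removal. MC1 cells without a factor gave 2 empty control libraries at 0 h, for which no event list was used; the title of the second names anti-FoxA1 and its characteristics name the anti-FLAG antibody. The combined lists held 32948 (FoxA1), 1112 (FoxC1), 7244 (FoxL2) and 4385 (FoxP3) events. With anti-FoxA1 the course held 15, 86, 8345, 35134 and 41726 events from 0 to 48 h, and with anti-FLAG 20, 17, 1656, 15984 and 13899. Lists of such unequal length give unequal chances of an event near any gene, so each count is set beside the share of all protein-coding genes that reached it. Each list stands alone without a replicate list, so no test was made, no spread between replicates can be given, and the 95% Wilson intervals on shares cover counting error only. The lists hold no expression values, so the labelled ES cells were not checked against their markers, and more bound cells and more binding per cell cannot be told apart in bulk chromatin.

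As background, naive ES cells are held by LIF signalling through STAT3 and by a mutually supporting set of transcription factors, which are lost as cells move to the formative and primed states. Tfcp2l1, a grainyhead-family factor, acts downstream of LIF and STAT3, and Tbx3, a T-box factor, supports Nanog in ES cells and has later roles in endoderm, heart and limb. Prdm14, a PR-domain zinc finger protein of ES and primordial germ cells, holds down FGF signalling and de novo DNA methyltransferases. Zfp42, a zinc finger protein better known as Rex1, is the classic marker gene whose loss marks exit from the naive state. FoxA1 is a pioneer factor of endoderm that can bind nucleosomal DNA, FoxC1 acts in mesoderm and eye, FoxL2 in ovarian granulosa cells and FoxP3 in regulatory T cells.

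Sequence around the gene start was held for Tfcp2l1 and Zfp42 in the RefSeq promoter table (GRCm38.p6, 250 bases before the start to 50 after it). Both are shown because neither window held an event of any list. Each is written 5′ to 3′ on the gene's strand in lower case, with capitals kept for matches to the Forkhead words TGTTTAC or TGTTTAT on either strand, of which there were 0.
Tfcp2l1, chr1:118627695-118627994, plus strand: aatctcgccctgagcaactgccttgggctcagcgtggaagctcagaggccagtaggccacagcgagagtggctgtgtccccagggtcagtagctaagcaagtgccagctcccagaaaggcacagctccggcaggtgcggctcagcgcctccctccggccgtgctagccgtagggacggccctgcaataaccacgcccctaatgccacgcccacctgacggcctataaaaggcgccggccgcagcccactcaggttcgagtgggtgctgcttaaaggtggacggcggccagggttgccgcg
Zfp42, chr8:43306960-43307259, minus strand: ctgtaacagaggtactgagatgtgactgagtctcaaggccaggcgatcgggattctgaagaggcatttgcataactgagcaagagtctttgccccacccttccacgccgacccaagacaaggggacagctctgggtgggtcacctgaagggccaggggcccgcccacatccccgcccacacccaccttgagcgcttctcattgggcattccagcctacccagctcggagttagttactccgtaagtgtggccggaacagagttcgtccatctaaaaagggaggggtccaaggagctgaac
The Tfcp2l1 window was 65.3% G or C with 21 CpG dinucleotides and the Zfp42 window 57.7% with 11, against medians of 52.7% and 7 over 32851 promoters. The word TGTTTAC, or its reverse complement on the other strand, occurred in 3.65% of all these promoters. The word TGTTTAT did so in 4.60%, and either in 7.97%, so the absence of both was the usual case. The nearest events to the Tfcp2l1 start were a FoxP3 event 2306 bp upstream and a FoxA1 event 1920 bp downstream. Around the Zfp42 start the nearest were anti-FoxA1 events 13792 bp upstream, at 24 h, and 9897 bp downstream, at 48 h.

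Among the 4 genes, Prdm14 had the most events and Zfp42 the fewest. The combined FoxA1 list placed 12 events near Prdm14, 6 near Tbx3, 5 near Tfcp2l1 and 6 near Zfp42, where 73.4% of all protein-coding genes had at least 1 and the median gene had 2. Per 100 kb of window that was 10.6, 5.25, 3.18 and 5.36 events. At least 12 events were found near 1.03% of genes, at least 6 near 11.5% and at least 5 near 17.2%, so Prdm14 stood higher in this list than the other 3 genes.

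The other 3 factors, with shorter lists, had 0 to 3 events near each gene. FoxC1 had 2 events near Prdm14, 1 near Tbx3 and 0 near Tfcp2l1 and Zfp42, against 7.26% of genes with any and 0.941% with at least 2. FoxL2 had 2, 2, 1 and 0 events in the same order, with any near 30.9% of genes and at least 2 near 10.3%. FoxP3 had 3, 3, 1 and 1, with any near 20.6% of genes and at least 3 near 2%. Prdm14 and Tbx3 therefore had events of all 4 factors, which 3.19% of genes had. No FoxC1 event lay near Tfcp2l1 or Zfp42 and no FoxL2 event near Zfp42, as was the case for most genes.

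**Figure D1:**
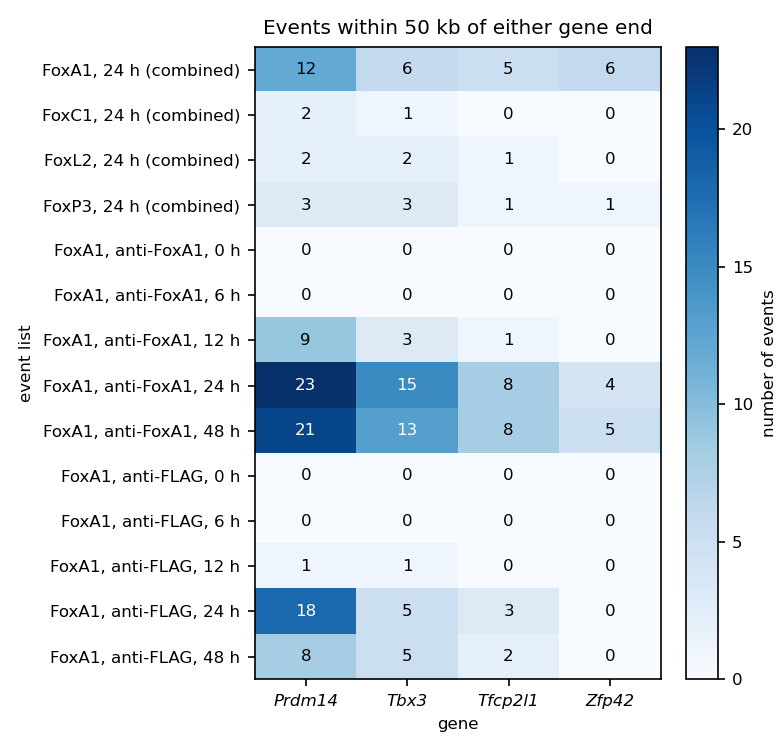
Number of events within 50 kb of either end of each gene (columns) in each of the 14 event lists (rows), with the number printed in each cell and shown as shade. Counts run from 0 in all lists of 0 and 6 h to 23 near Prdm14 with anti-FoxA1 at 24 h, and fall from Prdm14 to Zfp42 in most lists.

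In the time course no event lay near any of the 4 genes at 0 or 6 h, in lists of 15 to 86 events. At 12 h anti-FoxA1 gave 9 events near Prdm14, 3 near Tbx3, 1 near Tfcp2l1 and 0 near Zfp42, against 36.6% of genes with at least 1. Anti-FLAG at 12 h gave 1 each near Prdm14 and Tbx3 and 0 near the others, against 9.81% of genes. Only 17 genes (0.0777%) had as many anti-FoxA1 events at 12 h as Prdm14.

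At 24 h anti-FoxA1 gave 23, 15, 8 and 4 events near Prdm14, Tbx3, Tfcp2l1 and Zfp42 (73.5% of genes had any), and at 48 h it gave 21, 13, 8 and 5 (76.6%). Anti-FLAG gave 18, 5, 3 and 0 at 24 h (51.6%) and 8, 5, 2 and 0 at 48 h (49.1%). All 3 genes other than Zfp42 thus had events with both antibodies, and Zfp42 had none with anti-FLAG at any time. As many as 23 anti-FoxA1 events at 24 h were found near 8 genes (0.0366%), among them Prdm14, Jarid2 and Arid5b, and at least 18 anti-FLAG events near 2 genes (0.00914%), Zfp960 with 19 and Prdm14 with 18. The 15 anti-FoxA1 events of Tbx3 at 24 h were reached by 0.662% of genes and the 8 of Tfcp2l1 by 7.37%. At 48 h the 21 anti-FoxA1 events of Prdm14 were reached by 0.164% of genes, its 8 anti-FLAG events by 0.352%, and the 13 anti-FoxA1 events of Tbx3 by 2.15%.

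Close spacing added to these counts. When events of a list within 500 bp of each other were counted once, Prdm14 fell from 12 to 7 for the combined FoxA1 list, a number reached by 5.56% of genes in place of 1.03%. Its anti-FoxA1 count at 24 h fell from 23 to 13 (0.466% of genes) and its anti-FLAG count from 18 to 11 (0.0503%). At 48 h its anti-FoxA1 count fell from 21 to 12, reached by 1.56% of genes in place of 0.164%. The combined FoxA1 counts of Tbx3 and Zfp42 fell from 6 to 4 each, reached by 22.9% of genes in place of 11.5%.

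**Figure D2:**
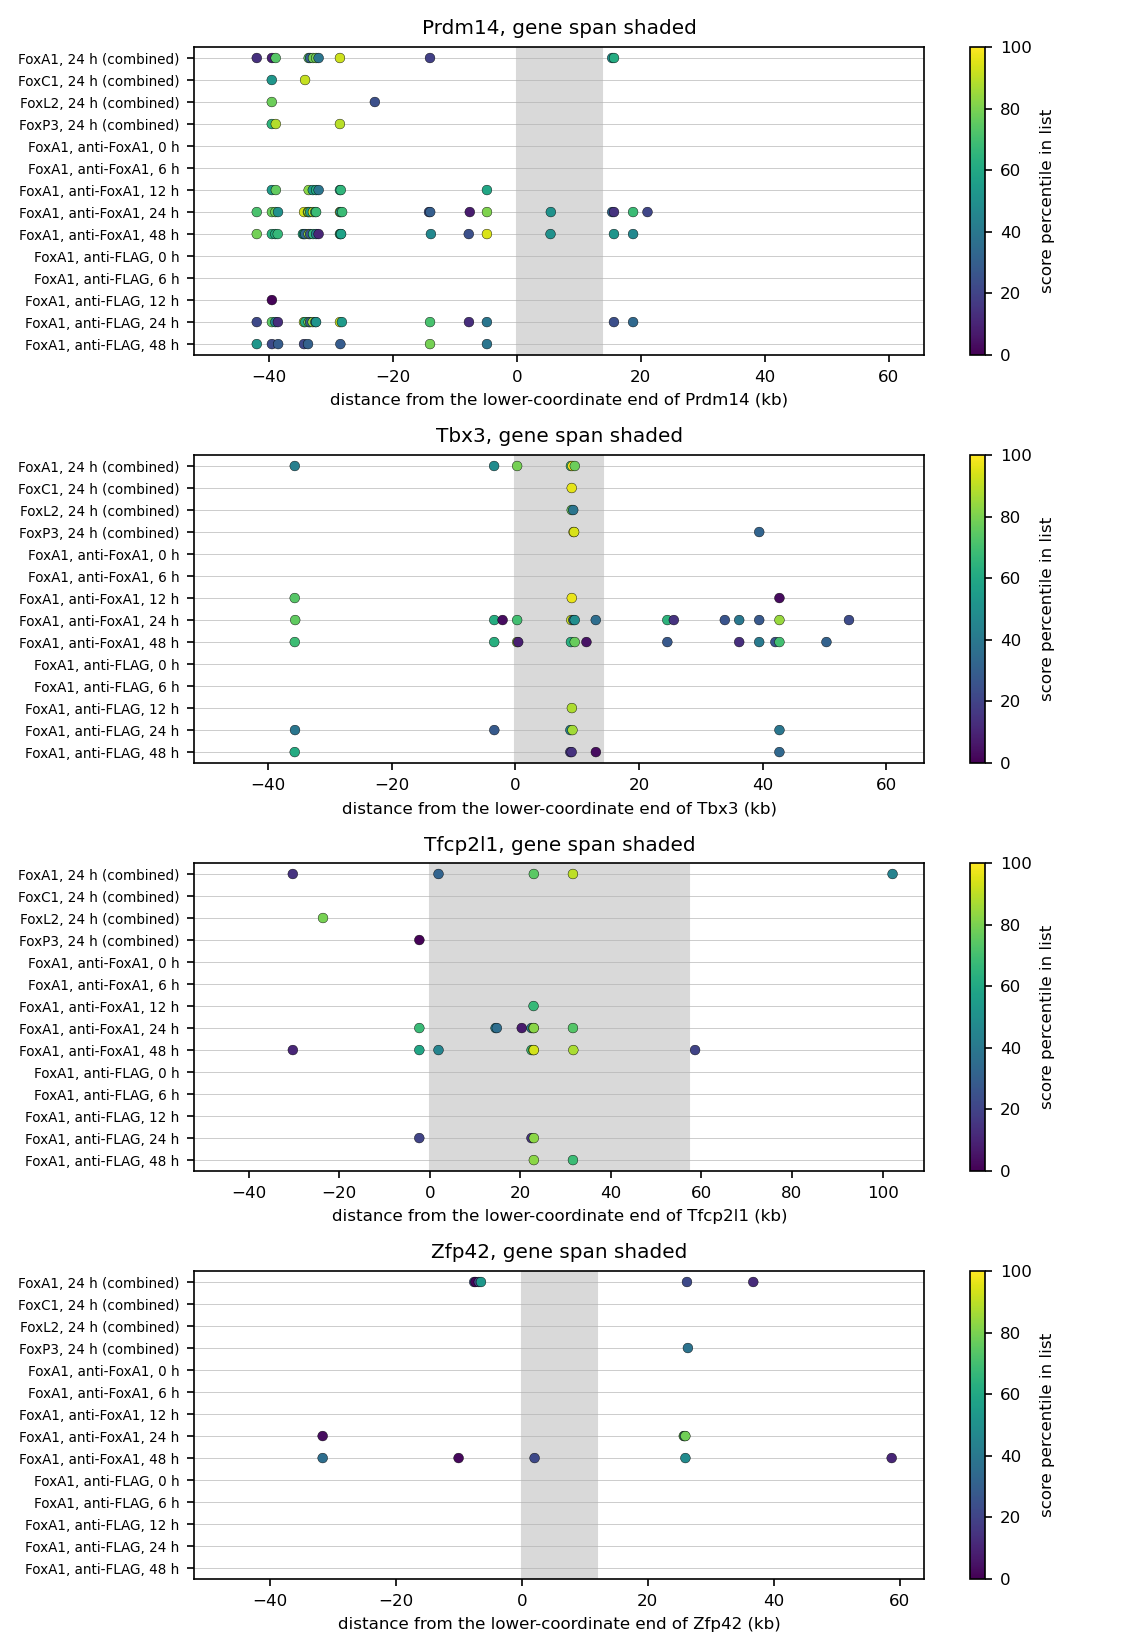
Position of every event along each gene's window, as distance in kb from the gene's lower-coordinate end, with 1 row for each list, the gene span shaded and colour giving the score percentile within the list. Most Prdm14 events sit 28152 to 41913 bp below the gene, and most Tfcp2l1 events lie inside the gene. Inside Tbx3, 19 of its 54 events lie within 726 bp. The Zfp42 events are few, with 6 of the 16 inside a 652 bp stretch that begins 13792 bp above the gene.

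Prdm14 (gene ID 383491) spans chr1:13113428-13127163 on mm10, and its events formed 28 sites, a site being events of any list joined at 100 bp or less. Of these, 23 lay below the gene's lower coordinate, 1 inside it and 4 above it, with the next protein-coding gene, Ncoa2 (a nuclear receptor coactivator), starting 11942 bp above and holding 0 events inside the window. A stretch of 13761 bp, chr1:13071515-13085276, between genes and 41913 to 28152 bp below Prdm14, held 72 of the 99 events (72.7%) and 16 of the 28 sites. It held 9 of the 12 combined FoxA1 events, both FoxC1 events, 1 of 2 FoxL2 events and all 3 FoxP3 events. Events near Prdm14 were thus gathered in a distal stretch, and the gene body held only anti-FoxA1 events of score 87 (24 h) and 89 (48 h). Within 20 kb of the gene, 3 of the 12 combined FoxA1 events and 0 FoxC1, FoxL2 and FoxP3 events remained.

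The score of an event is a whole number from 43 to 1000 whose scale is not given, so it is read through its percentile within its own list. One site of the stretch, chr1:13073935-13073961, carried all 4 factors and an event in each of the 10 lists with events near these genes. FoxC1 (score 71, percentile 52.4), FoxL2 (103, 77.5) and FoxP3 (112, 64.9) were placed on the same base, 13073935, and FoxA1 (52, 9.23) 26 bp away. The site was thus low in the FoxA1 list and at or above the middle for the other 3 factors. Anti-FoxA1 scores there were 79 at 12 h, 177 at 24 h and 120 at 48 h (percentiles 54.0, 76.6 and 63.5), and anti-FLAG scores 43, 189 and 59 (0.845, 74.8 and 22.3). With both antibodies it ranked highest at 24 h. A site of all 4 combined lists lay near 1.03% of genes. Sites with events of 10 lists or more numbered 62 of 70134 (0.0884%), and FoxC1, FoxL2 and FoxP3 shared 1 base at 25 of 1106 FoxC1 events (2.26%).

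About 0.6 kb farther on, FoxA1 (score 211, percentile 73.5, at 13074566) and FoxP3 (250, 88.4) lay 18 bp apart. Anti-FoxA1 scores at this second site were 122, 185 and 117 at 12, 24 and 48 h, and anti-FLAG gave 85 at 24 h. The highest combined FoxA1 score near Prdm14 was 607 (percentile 92.5) at 13084925, with a FoxP3 event of 263 (89.4) 4 bp away. Anti-FoxA1 scores within 6 bp of that FoxP3 event were 83, 437 and 149 from 12 to 48 h, and anti-FLAG scored 424 at 24 h. All 3 FoxP3 events near Prdm14 therefore lay within 100 bp of a combined FoxA1 event, against 42.6% of FoxP3 events over all. It was 0 of 3 near Tbx3 and 0 of 1 each near Tfcp2l1 and Zfp42, and 3 of 8 (37.5%) over the 4 genes. The contrast depends on the 100 bp limit and on the list. A Tbx3 FoxP3 event lay 108 bp from a combined FoxA1 event, and the Zfp42 one 146 bp. From anti-FoxA1 events of 24 h, the FoxP3 events of Tbx3 lay 32, 99 and 2 bp away. The Tfcp2l1 one lay 8 bp from such an event and the Zfp42 one 402 bp. The second FoxC1 event (220, 91.4) at 13079300 lay 584 bp from the nearest combined FoxA1 event, but 12 bp from an anti-FoxA1 event of 48 h and 24 bp from an anti-FLAG event of 24 h.

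Other FoxA1 sites of the stretch were found again and again at almost the same base. At 13079883-13079884 the scores were 218 in the combined list, 154, 284 and 234 with anti-FoxA1 at 12, 24 and 48 h, and 226 with anti-FLAG at 24 h. At 13081077-13081081 they were 265, then 91, 137 and 76, and 99. Both sites scored highest at 24 h among the anti-FoxA1 lists, and anti-FLAG had no event at either at 48 h.

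Nearer the gene the pattern differed between antibodies. A site 4795 bp below Prdm14, chr1:13108618-13108633, had no combined event, while its anti-FoxA1 score was 87 at 12 h, 208 at 24 h and 468 at 48 h (percentiles 59.3, 80.9 and 94.2). Its anti-FLAG scores were 77 and 76 at 24 and 48 h (39.2 and 38.9). Conversely, at 13099447-13099476, inside the long noncoding RNA gene Gm39592, anti-FLAG scored 168 and 210 at 24 and 48 h (71.1 and 78.9) while the combined list scored 62 and anti-FoxA1 61 at 24 h (18.9 and 29.5). A FoxL2 event of score 50 (percentile 24.5) at 13090551 stood alone.

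**Figure D3:**
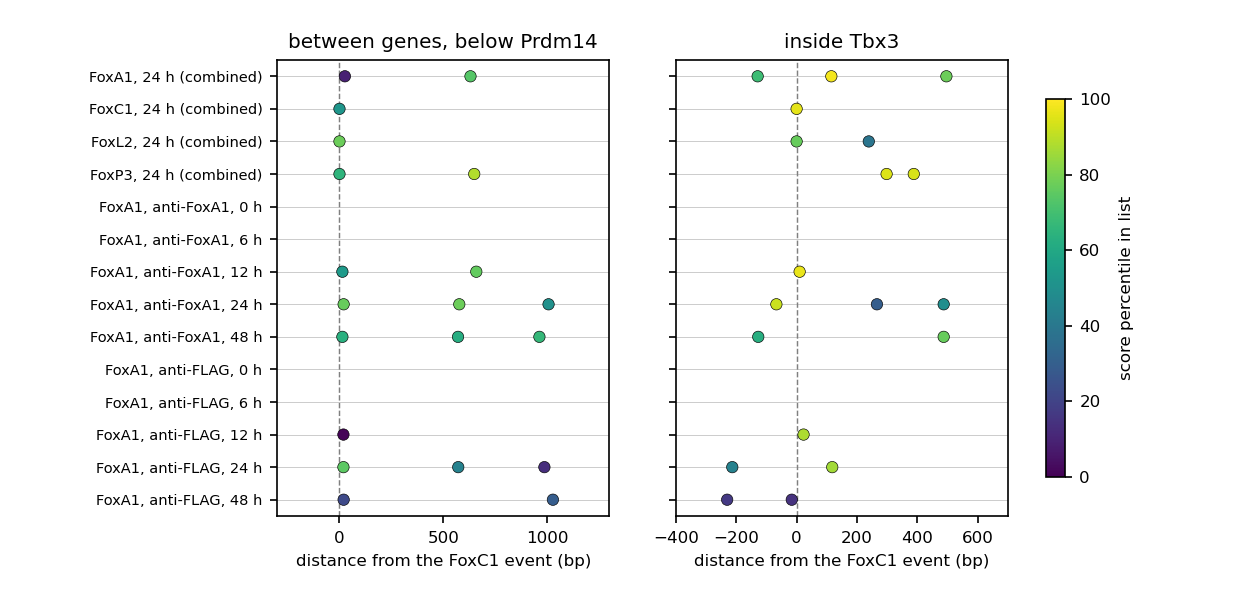
Events around the FoxC1 event shared with FoxL2 in the stretch below Prdm14 (left) and inside Tbx3 (right), as distance in bp from the FoxC1 event (dashed line), with 1 row for each list and colour giving the score percentile. FoxC1, FoxL2 and FoxP3 coincide at 0 bp on the left, whereas on the right FoxC1 and FoxL2 coincide and the FoxP3 events lie 298 and 388 bp away.

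Tbx3 (gene ID 21386) spans chr5:119670534-119684724, and its events formed 18 sites, 3 below, 6 inside and 9 above the gene. In contrast to Prdm14, the best scored events lay inside the gene. A stretch of 726 bp, chr5:119679407-119680133, held 19 of the 54 events and every FoxC1 and FoxL2 event near Tbx3. The exon structure was not used here, so the stretch is placed only within the gene span.

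In its lower part FoxC1 (score 323, percentile 96.0) and FoxL2 (99, 76.9) shared base 119679637. FoxA1 had an event of 176 (68.4) at 119679508 and one at the score ceiling of 1000 (98.4) at 119679752, 115 bp from the shared base. Anti-FoxA1 scored 348, 365 and 118 at 12, 24 and 48 h (percentiles 96.6, 91.8 and 62.6). Anti-FLAG scored 208 at 12 h (87.7), 85 and 295 at 24 h (44.5 and 86.0) and 54 and 53 at 48 h (16.7 and 14.3). With both antibodies the place was thus among the better scored events at 12 h and lower in the list at 48 h.

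After a gap of 121 bp, the upper part held FoxP3 events of 390 (percentile 94.8) and 365 (93.9), a FoxL2 event of 54 (38.9) and a FoxA1 event of 246 (77.4). Here anti-FoxA1 scored 61 and 85 at 24 h and 180 at 48 h, and anti-FLAG had no event. All 4 factors had events within the stretch, yet no base or 100 bp site held all 4, since the nearest FoxP3 event lay 298 bp from the FoxC1 event. FoxC1 and FoxL2 shared a base at 145 of 1106 FoxC1 events (13.1%).

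Near the lower end of Tbx3, 265 bp inside it, FoxA1 scored 264 (percentile 79.1), with anti-FoxA1 142 at 24 h and 249 at 48 h (69.7 and 84.7) and no anti-FLAG event. This place lies in the overlap of Tbx3 with the antisense-named noncoding gene Tbx3os1. A site 35654 bp below Tbx3, also inside Tbx3os1, scored 90 in the combined FoxA1 list, 115, 171 and 139 with anti-FoxA1 at 12, 24 and 48 h, and 77 and 121 with anti-FLAG at 24 and 48 h. It was the only site below Tbx3 called at 12 h. Above the gene, 28525 bp away, a site without a combined event scored 43, 247 and 144 with anti-FoxA1 and 77 and 67 with anti-FLAG. The third FoxP3 event (60, percentile 32.0) lay above the gene at 119709984, within 4 bp of anti-FoxA1 events of 58 at 24 h and 75 at 48 h.

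Tfcp2l1 (gene ID 81879) spans chr1:118627923-118685168, and 7 of its 12 sites lay inside it, 3 below and 2 above. Events at 10 of the 12 sites were of FoxA1 alone, as at 61 of the 72 sites near the 4 genes. The leading place was 22902 bp into the gene at 118650825-118650919. FoxA1 scored 216 there (percentile 74.3), and anti-FoxA1 99 at 12 h, 274 and 222 at 24 h and 322 and 427 at 48 h. Anti-FLAG scored 253 and 248 at 24 and 48 h (82.5 and 82.8). Unlike the place inside Tbx3, it was as high in the 48 h lists as in those of 24 h with both antibodies, the anti-FoxA1 percentiles being 87.0 and 82.3 at 24 h and 89.5 and 93.3 at 48 h.

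The highest combined FoxA1 score near Tfcp2l1 was 493 (percentile 90.0) at 118659552, with anti-FoxA1 157 and 285 and anti-FLAG 148 (48 h) within 85 bp. A FoxP3 event of score 43 (0.525), the lowest score in the lists, lay 2284 bp below the gene within 17 bp of anti-FoxA1 events of 134 and 108 and an anti-FLAG event of 56. The FoxL2 event (108, 79.5) lay 23558 bp below, inside the neighbour Clasp1, a microtubule plus-end protein, with the nearest other event 6664 bp away. Clasp1 held 3 of the 29 events in the window.

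Zfp42 (gene ID 22702) spans chr8:43295067-43307009. Its 6 combined FoxA1 events scored 68, 43, 62 and 113 below the gene (43287521-43288599), and 64 and 55 above it at 43321307 and 43331831. Their percentiles ran from 1.46 to 53.0 with a median of 20.6, against medians of 55.4 for Prdm14, 72.9 for Tbx3 and 44.0 for Tfcp2l1. The single FoxP3 event (65, percentile 38.1) lay at 43321453, 146 bp from the nearest FoxA1 event. Anti-FoxA1 scored 43, 188, 67 and 188 at 24 h and 69, 44, 57, 86 and 50 at 48 h, the 57 being the only event inside the gene. Zfp42 thus had as many combined FoxA1 events as Tbx3 but of low score, and 12 of its 14 sites were in 1 list.

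**Figure D4:**
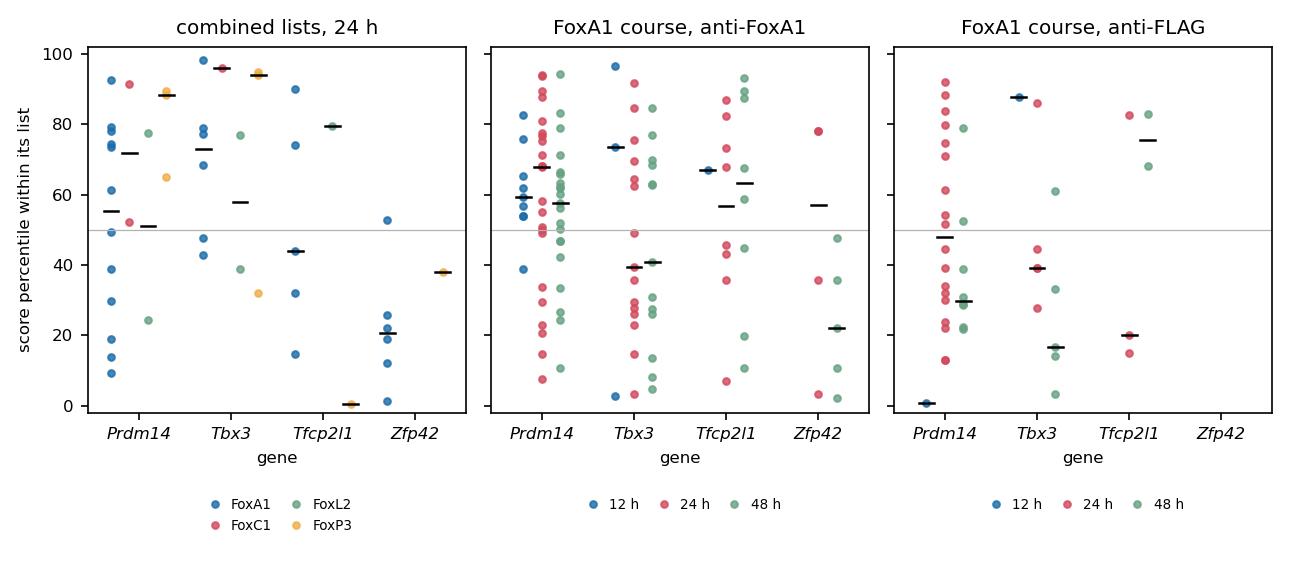
Score percentile within its list (vertical axis, 0 to 100) of every event near each gene, with a bar at the median, for the combined lists (left), anti-FoxA1 course (middle) and anti-FLAG course (right). The grey line marks the list median; 1 of the 6 combined FoxA1 events near Zfp42 lies above it, and 4 of the 6 near Tbx3 do.

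The combined FoxA1 list and the course came from separate libraries, and the genes differed in how far these met. An anti-FoxA1 event of 24 h lay within 100 bp of 11 of 12 combined FoxA1 events near Prdm14, 5 of 6 near Tbx3, 2 of 5 near Tfcp2l1 and 0 of 6 near Zfp42 (Wilson upper limit 39.0%), against 54.8% of all combined FoxA1 events. The limit treats the 6 Zfp42 events as independent, though they counted as 4 when joined within 500 bp. It therefore cannot decide whether Zfp42 differs from the share over all. In the other direction, 11 of 23, 5 of 15, 3 of 8 and 0 of 4 anti-FoxA1 events of 24 h met a combined FoxA1 event, against 52.5% over all. Counting any course list, 12 of 12, 6 of 6, 4 of 5 and 0 of 6 combined events were met, against 67.9% of all. Over all genes, low scores went with fewer meetings: 52.5% of combined FoxA1 events below the list median had a course event and 83.2% of those at or above it. Of the 2519 genes with at least 6 combined FoxA1 events, Zfp42 and Slc27a2, 2 genes (0.0794%), had none that met a course event, a count made after the value for Zfp42 was seen.

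Anti-FLAG marks the tagged FoxA1, whereas anti-FoxA1 would also mark any untagged FoxA1, which the lists do not measure. At 24 h most anti-FLAG events near the genes met an anti-FoxA1 event. These were 16 of 18 near Prdm14, 3 of 5 near Tbx3 and 3 of 3 near Tfcp2l1, against 86.0% over all. At 48 h it was 10 of 15 for the genes together (66.7%, interval 41.7 to 84.8%), against 90.2%. Of these 15 events, 8 lay near Prdm14. The interval treats them as independent, so it cannot decide whether the share differs from that over all. At 24 h the reverse share was lower over all, at 40.5%, and the anti-FoxA1 list was the longer. Near Prdm14, Tbx3, Tfcp2l1 and Zfp42, 16 of 23, 3 of 15, 4 of 8 and 0 of 4 anti-FoxA1 events met an anti-FLAG event. Whether list length accounts for these shares was not tested.

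Anti-FoxA1 events fell into 62 sites near the 4 genes. The first call was at 12 h for 12 of them (19.4%, interval 11.4 to 30.9%), at 24 h for 36 (58.1%, 45.7 to 69.5%) and at 48 h for 14 (22.6%, 13.96 to 34.4%). Over the 50414 anti-FoxA1 sites these shares were 15.9%, 52.8% and 31.2%. Many of the 62 sites lay close together near the same gene, and no time had a replicate list. The intervals treat sites as independent, so they cannot decide whether the shares near the 4 genes differ from those over all sites. Of the 28 anti-FLAG sites 2 were first called at 12 h (7.14%, 1.98 to 22.6%), 23 at 24 h (82.1%, 64.4 to 92.1%) and 3 at 48 h (10.7%, 3.71 to 27.2%), against 8.25%, 71.9% and 19.7% of 19473.

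With anti-FoxA1, 8 of the 12 sites first called at 12 h were near Prdm14, 3 near Tbx3, 1 near Tfcp2l1 and 0 near Zfp42. These genes held 28, 18, 12 and 14 sites over all lists, of which 1, 0, 2 and 7 had no anti-FoxA1 event. Genes with more anti-FoxA1 sites thus also had more early ones. The 2 anti-FLAG sites first called at 12 h were the site of all 4 factors near Prdm14 and the FoxC1 and FoxL2 place inside Tbx3. Of the 12 early anti-FoxA1 sites, 11 were called again at both 24 and 48 h (83.4% of the 8005 over all), whereas 18 of the 36 first called at 24 h were called at 48 h (66.6% over all). By event, 31 of 50 anti-FoxA1 events of 24 h met one of 48 h (62.0%, 48.2 to 74.1%; 72.0% over all), and 11 of 26 anti-FLAG events did (42.3%, 25.5 to 61.1%; 61.3% over all). Near Prdm14 anti-FLAG kept 7 of 18 (38.9%, 20.3 to 61.4%), while the whole anti-FLAG list shortened from 15984 to 13899 events. Those 18 events counted as 11 when joined within 500 bp. The intervals by event treat close events as independent, so they cannot decide whether fewer were kept than over all.

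**Figure D5:**
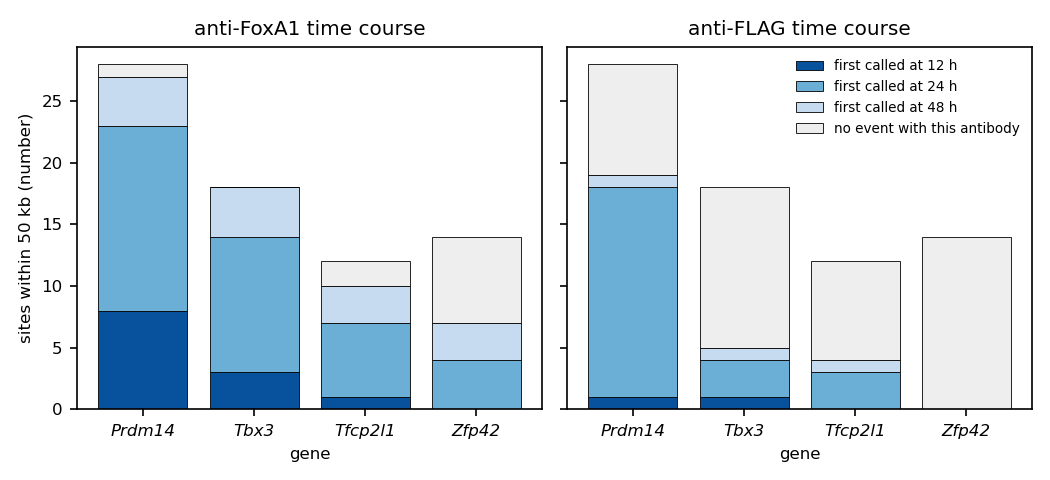
Number of sites within 50 kb of each gene by the time of their first event with anti-FoxA1 (left) and anti-FLAG (right), with sites that have no event of that antibody in grey. Prdm14 holds 8 of the 12 sites first called at 12 h with anti-FoxA1, and all 14 Zfp42 sites are grey with anti-FLAG.

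Taking all lists, the 4 genes had 72 sites, of which 32 were in 1 list (44.4%, against 50.5% of all 70134 sites), 13 in 2 lists and 27 in 3 or more. The single-list sites were 6 of 28 near Prdm14, 8 of 18 near Tbx3, 6 of 12 near Tfcp2l1 and 12 of 14 near Zfp42. By factor, 64 sites were of 1 factor, 5 of 2, 2 of 3 and 1 of 4, for which no share over all sites was computed. All 10 course lists are of FoxA1, and 61 of the 72 sites held FoxA1 events only. Both 3-factor sites were the neighbouring places inside Tbx3, and both joined 3 factors only through FoxA1 course events. From the 4 combined lists alone, Tbx3 had 7 sites of 1 list, 2 of 2 lists and 0 of 3 lists, against 37436, 2859 and 528 over all.

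In a list of 16 other naive and core pluripotency genes, 15 had a combined FoxA1 event, 5 a FoxC1, 10 a FoxL2 and 11 a FoxP3 event, where the shares of all protein-coding genes were 73.4%, 7.26%, 30.9% and 20.6%. Events of all 4 factors lay near 4 of them (3.19% of all genes). With anti-FoxA1 15, 15 and 14 of them had an event at 12, 24 and 48 h, against 36.6%, 73.5% and 76.6% of all genes. Of 10 formative and primed genes the combined lists had events near 9, 1, 7 and 7 in the same order, with 1 gene having all 4 factors. Anti-FoxA1 had events near 4, 7 and 8 of these 10 at 12, 24 and 48 h, close to the shares over all genes. In the combined lists their FoxL2 and FoxP3 shares, 70% each, were above the 30.9% and 20.6% of all genes. Their FoxA1 share was 90% (73.4% of all genes) and their FoxC1 share 10% (7.26%). The median number of combined FoxA1 events was 6 over Prdm14, Tbx3, Tfcp2l1 and Zfp42 and 6 over the 16 naive and core genes, against 2 over all genes.

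The leaders of the naive list in a combined list were Esrrb, an orphan nuclear receptor, with 21 FoxA1 events, Klf5 with 12 and Klf4 with 8, both Kruppel-like factors, with Sall4 tied with Klf4 at 8. Those of the primed list were Otx2, a homeobox factor of the formative state, with 12 FoxL2 and 8 FoxA1 events, Dnmt3b, a de novo DNA methyltransferase, with 8 FoxA1 events, and Lef1, a Wnt effector, with 8, a number that Zic2 also had. Prdm14 stood with Klf5 in the combined FoxA1 list at 12 events each, and the other lists went both ways. Prdm14 had more for FoxC1 (2 to 0), anti-FoxA1 at 24 h (23 to 18) and 48 h (21 to 16), and anti-FLAG at 24 h (18 to 11). Klf5 had more for FoxL2 (6 to 2), FoxP3 (5 to 3) and anti-FoxA1 at 12 h (11 to 9). It also had more for anti-FLAG at 12 h (3 to 1) and 48 h (9 to 8).

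Likeness was the summed absolute difference in event counts over the 11 lists with at least 20 events on the nuclear chromosomes. Nearest to Prdm14 were Arid5b (a sum of 13), Rbfox2, a splicing regulator (18), and Kcnk5, a potassium channel subunit (20). Among the nearest to Tbx3 were Fbxo47 (6) and Adamtsl4 (8). For Tfcp2l1 and Zfp42 more than 5 genes tied and none is named.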

How the data were processed

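ChIP-exo reads of the MC1 ES cell lines were aligned to mm10 with BWA (0.7.17-r1188), and Picard and SAMtools were used, according to the submitters' processing notes. Per the file headers, ChExMix called the events. Each deposited event is 1 bp wide and carries a score made by the authors' caller, whose scale is, like its thresholds and the way libraries were combined, not given in the sources used here. Depth is unknown, since the lists hold no reads.

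Gene spans came from RefSeq GRCm38.p6, the build of mm10, and promoter sequence was matched by symbol for 2 of the 4 genes. Events within 50 kb of either gene end were counted, those of the 14 lists within 100 bp were joined into sites, and scores were ranked within each list with ties at their mean rank (Python 3.11.15, pandas 2.3.3, numpy 2.4.6). Shares carry Wilson 95% intervals. The counting scripts were tested on simulated data. Alternatives were windows of 20 and 100 kb, joins at a shared base, 50 and 200 bp, scores at or above the list median, removal of positions called at 0 h, and single course lists in place of the combined FoxA1 list. Background shares are over the 21887 protein-coding genes, with genes of all types (49943) as an alternative. Named genes were the 4 genes, protein-coding genes overlapping their windows, up to 3 leaders of each list and up to 3 likest genes unless more than 5 tied. Others were named after their values were seen. The genes and lists were chosen with earlier results of these data known. Some of the series' items are left out of this report.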

Additional observations from a re-analysis of the deposited data

How the results depend on the processing

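With the window at 20 kb the counts near the 4 genes were 14 for the combined FoxA1 list (29 at 50 kb), 1 for FoxC1 (3), 2 for FoxL2 (5) and 4 for FoxP3 (8). For anti-FoxA1 at 12, 24 and 48 h they were 2, 25 and 19 (13, 50 and 47), and for anti-FLAG 1, 9 and 5 (2, 26 and 15), with 38 sites (72) and 0 sites of all 4 factors (1). Keeping scores at or above the list median left 13 FoxA1, 3 FoxL2 and 5 FoxP3 events. Anti-FoxA1 then had 28 at 24 h and 25 at 48 h, anti-FLAG 1, 11 and 5 at 12, 24 and 48 h, with 36 sites, 0 of all 4 factors, and 1 anti-FLAG site first called at 12 h (2). Joining at a shared base gave 174 sites and 0 of all 4 factors, and joining at 200 bp gave 2 of all 4, as the places inside Tbx3 merged. Counting events of a list within 500 bp once, an alternative chosen after seeing the data, left 33 of 50 anti-FoxA1 events at 24 h and kept the other 9 counts within 1.5 times. A 100 kb window, leaving out positions called at 0 h, joining at 50 bp and single 24 h lists in place of the combined FoxA1 list kept the counts over the 4 genes together for which they were run within 1.5 times. The shares of all protein-coding genes with an event moved with the window: at 20 kb they were 53.7% (FoxA1), 3.66% (FoxC1), 16.95% (FoxL2) and 10.98% (FoxP3), at 100 kb 84.8%, 12.2%, 46.3% and 32.8%, and over genes of all types at 50 kb 66.6%, 6.02%, 27.1% and 18.1%. By gene, the 100 kb window raised the combined FoxA1 count near Tbx3 and near Zfp42 to 10 each (6 each), and scores at or above the median left 1 near Zfp42. No paired analysis was possible because each list is 1 set of events without replicate lists. For the same reason no replicate could be left out. Depth is unknown, so a missing event shows only that none was called.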
